A study of Mus musculus with 31 samples.

Results

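The genes described here carry antigen presentation on MHC class II in the mouse masseter muscle (MM): H2-Aa, H2-Ab1 and H2-Eb1 (the chains of the class II molecule), Cd74 (the invariant chain), H2-DMa, H2-DMb1 and H2-Oa (chains of the molecules that control peptide loading), Ciita (the transcriptional coactivator of class II) and Cd80 and Cd86 (the costimulatory ligands shown to T cells beside the loaded molecule). They were chosen by name, as the class II genes, their transactivator and the costimulatory pair, and all 10 were listed among the 22609 gene symbols of every library. Their level was followed in CPM (read counts scaled to a common library size) in 31 libraries, 1 from each mouse, over 9 groups. Each CFA group was set against the CFA vehicle mice and each collagenase group against the collagenase vehicle mice.

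The MM of male C57BL/6J mice, adults of 2 to 4 months by the study's methods, was injected on the left side, and bulk poly(A) RNA was sequenced from the muscle as a whole. In one experiment the agent was complete Freund's adjuvant (CFA), an oil emulsion of killed mycobacteria that causes inflammation, with 3 mice at 1d, 3 mice at 5d and 3 mice given vehicle. In the other it was collagenase type 2 (Col), an enzyme that cuts the collagen of the muscle's connective tissue, with 3 vehicle mice, 4 mice each in the 0.2U groups named 1C and RPC, and 4, 3 and 4 mice at 2d, 6d and 12d after 10U. The days are those of the sample labels; the study's text gives other days for the 10U groups labelled 2d and 12d, and the labels give no day for 1C or RPC. All mice were wild type and the vehicle was saline, so the groups differ by agent, dose and time, and the 0.2U and 10U groups share 3 vehicle mice. The labels do not say with which of the Col groups these 3 mice were run.

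The libraries held 14843778 to 29076671 counts on genes (median 20834472), and no pair of libraries was identical. Low genes such as H2-Oa and Cd80 rested on a few reads. The 11 libraries of 10U Col stood apart in 1 technical value: reads that fell on more than 1 gene made up 0.675 to 0.875% of the assigned reads, against 0.147 to 0.317% in the other 20 libraries, the Col vehicle included. Such a split in counting cannot be told apart from the 10U groups. The summed level of 8 salivary gland genes ran from 0.847 to 2.59 CPM at 6d post-10U Col, from 26.6 to 109031 CPM in the Col vehicle mice and from 86022 to 124103 CPM at 5d post-CFA, so salivary gland genes made up a large share of the reads in some libraries.

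Class II molecules are made of an alpha and a beta chain and sit on cells that take up antigen, such as macrophages, dendritic cells and B cells, where they show peptides to CD4 T cells. The invariant chain folds onto the new molecule and guides it to the endosome, where cathepsins trim it, H2-DM exchanges the remaining fragment for a peptide, and H2-O holds H2-DM back. Ciita does not bind DNA itself but docks on the factors that sit on the X and Y boxes of these genes' promoters, and interferon gamma is its best known inducer. Most skeletal muscle fibres lack class II, so in whole muscle its RNA comes largely from cells between the fibres, and in bulk samples fewer cells of a type and less RNA per cell cannot be told apart.

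Promoter windows from a RefSeq table were searched for 6 of the 10 members (H2-Aa, H2-Eb1, H2-DMa, H2-DMb1, H2-Oa and Cd80). Each window ran from 250 bases before to 50 after the start. H2-Ab1, Ciita and Cd86 had no entry in that table, and Cd74 was left out of the search, so its promoter was not examined. On both strands a pair of motifs was searched: AGCAAC, the core of the X box, and ATTGG, the Y box. Singly these are common, and 14.8% and 37.4% of all 32841 windows held them. A stricter pattern, written after these sequences had been read, asks for GNAAC followed at 20 to 35 bases by TGATTGG, whose last letters are the Y box, so that the motifs overlap. It stood in 0.426% of all windows and in those of H2-Aa, H2-Eb1, H2-DMb1 and H2-Oa, 4 of the 6 members, and not in those of H2-DMa or Cd80. The stretches of 2 class II chains and of H2-Ob, the partner of H2-Oa, are shown because they lie outside the annotated gene. Those of H2-DMb1 and H2-Oa reach into it and are not shown. H2-Aa and H2-Eb1 rose at 6d post-10U Col, and H2-Ob did not pass the test there. The sequences are RefSeq's, found again letter for letter and once only in the mm9 genome, the build of the count files; the letters in capitals mark the 2 parts of the pattern.
H2-Aa, minus strand, chr17:34424792-34424869: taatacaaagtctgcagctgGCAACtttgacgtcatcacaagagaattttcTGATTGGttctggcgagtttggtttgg
H2-Eb1, plus strand, chr17:34442701-34442777: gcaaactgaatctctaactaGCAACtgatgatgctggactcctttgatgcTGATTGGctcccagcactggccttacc
H2-Ob, plus strand, chr17:34375743-34375817: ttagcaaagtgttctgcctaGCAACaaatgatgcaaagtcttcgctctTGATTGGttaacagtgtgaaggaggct
The gap between the parts was 26 bases in H2-Aa, 25 in H2-Eb1 and 23 in H2-Ob, and the pattern ended 43, 54 and 52 bases before the start. H2-DMb1 and H2-Oa carried it with a gap of 26 bases. A match describes letters only, and the absence of the pattern from H2-DMa and Cd80 says nothing of the factors that bind there.

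The 6 class II genes lie together on chromosome 17 of mm9, from H2-Oa (34229285 to 34232179) through H2-DMa (34272127 to 34276046), H2-DMb1 (34290017 to 34297168), H2-Ab1 (34400154 to 34406363) and H2-Aa (34406276 to 34424772, minus strand) to H2-Eb1 (34442828 to 34453144). Ciita (10480237 to 10527657), Cd86 (36603955 to 36666167, minus strand) and Cd80 (38459013 to 38495821) lie on chromosome 16 and Cd74 (60963502 to 60972300) on chromosome 18. H2-Aa and H2-Ab1 meet at their ends on opposite strands and share 0.856% and 1.03% of their exon bases. H2-DMb1 is the one member with a near copy: 27.1% of its 50-base windows also occur in transcripts of H2-DMb2, so its counts are uncertain to the extent that reads were split or set aside between them. H2-DMb2 itself averaged 0.284 CPM over the 31 libraries.

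Per kilobase of exon, the members spanned a wide range in muscle given vehicle only. In the 3 Col vehicle mice Cd74 stood at 99.3 ± 21.3 RPKM (CPM per kilobase of exon; SD, n = 3), above H2-Eb1 at 40.4 ± 1.73, H2-Ab1 at 30.6 ± 6.14 and H2-Aa at 29.2 ± 1.97 RPKM. H2-DMa (3.84 ± 1.17 RPKM) and H2-DMb1 (3.44 ± 0.605 RPKM) were about an order of magnitude lower than the chains they serve. Cd86 (0.474 ± 0.233 RPKM), Ciita (0.340 ± 0.136 RPKM), H2-Oa (0.230 ± 0.313 RPKM) and Cd80 (0.0539 ± 0.0749 RPKM) were lowest, and the last 2 had an SD larger than their mean. The order of the abundant members was kept at 6d post-10U Col, where Cd74 stood at 223 ± 38.3, H2-Ab1 at 91.2 ± 14.6, H2-Eb1 at 91.0 ± 18.0 and H2-Aa at 66.7 ± 12.2 RPKM, except that H2-Ab1 and H2-Eb1 were level.

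The vehicle mice themselves differed. Among the 6 vehicle mice of both experiments, 9 of 10 members were lowest in mouse 1 of the CFA vehicle. For H2-Oa this was a tie, at 0 reads, with mouse 2 of the Col vehicle. For the 8 members above 0 in all 6 mice the highest mouse exceeded the lowest between 2.60-fold (H2-DMb1) and 9.40-fold (Ciita). H2-Aa stood at 18.1, 60.9 and 77.6 CPM in the CFA vehicle mice and at 60.9, 53.6 and 59.6 CPM in the Col vehicle mice. The low mouse was thus of the CFA experiment, whose vehicle group was the wider one for the class II chains. No member differed between the 2 vehicle groups in edgeR's quasi-likelihood test with Benjamini-Hochberg adjustment over all genes (0 of 8 tested, 0 at an unadjusted p under 0.05 and 0 by DESeq2; 0.0426% of 14070 genes were called higher by edgeR and 0.377% by DESeq2), and the groups lay apart, higher in the Col vehicle, for none (2.52% of genes).

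**Figure D1:**
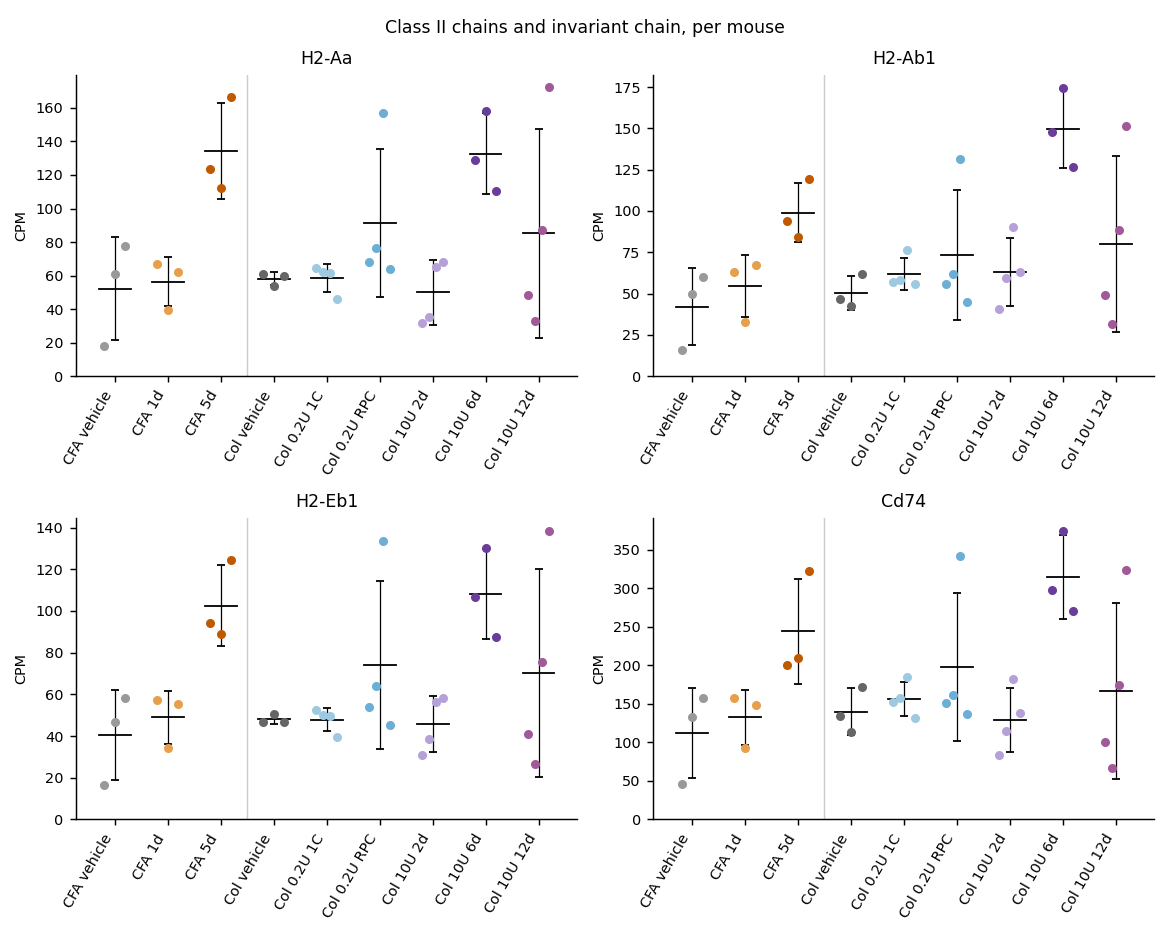
CPM of H2-Aa, H2-Ab1, H2-Eb1 and Cd74 (y axes, from 0) in each of the 31 mice (points) by group (x axis), with the mean (line) and SD (bar) of each group; the grey line parts the CFA from the Col experiment. At 6d post-10U Col all 3 mice lie above all 3 Col vehicle mice in each panel, the 3 mice at 5d post-CFA lie above their vehicle, and mouse 4 at 12d post-10U Col lies far above the other 3.

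The class II chains rose 6d after 10U Col. H2-Ab1, the beta chain of I-A, was at 148, 175 and 127 CPM in the 3 mice at 6d and at 46.4, 42.7 and 61.7 CPM in the Col vehicle mice. The lowest 6d mouse stood above the highest vehicle mouse by a wide margin, and the log2 fold change was 1.57 ± 0.22 (SE; adjusted p = 0.00481). H2-Aa, the alpha chain of I-A, was at 129, 158 and 110 CPM at 6d against 60.9, 53.6 and 59.6 CPM in vehicle (log2 fold change 1.19 ± 0.18, adjusted p = 0.00621). H2-Eb1, the beta chain of I-E, was at 107, 130 and 87.6 CPM against 46.7, 50.4 and 47.0 CPM (1.17 ± 0.18, adjusted p = 0.00659). For all 3 chains the groups lay apart, and mouse 2 was the highest and mouse 3 the lowest of the 6d mice. The partner alpha chain of I-E is listed as a pseudogene, H2-Ea-ps, and had no counts in the 31 libraries.

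Cd74, the invariant chain, rose as well. It was at 298, 375 and 271 CPM in the 6d mice and at 134, 113 and 173 CPM in the vehicle mice (log2 fold change 1.16 ± 0.24, adjusted p = 0.0146). In sum, the 3 chains and Cd74 came to 596 to 839 CPM in the 6d mice, against 260 to 341 CPM in the Col vehicle mice. Of the 10 members, 8 were called higher at 6d, where 14.0% of 14281 genes were (Cd80, one of the 8, met the low-count filter of 10 reads in 3 libraries only through the 6d mice), and in all 10 the groups did not overlap, where 25.1% of genes lay apart in that direction. DESeq2 called 9 higher, H2-DMa being the one added (17.1% of genes). The members' median log2 fold change was 1.42, beside 0.01 over all genes tested. H2-Aa, H2-Ab1 and H2-Eb1 were the 3 called without mouse 1 or without mouse 2 of the 6d group (3 members each, where 4.59% and 3.39% of genes were called). In a fit of all 31 libraries with a salivary gland score as a covariate, chosen after the data had been seen, 3 were called, H2-Ab1, Ciita and Cd80 (12.5% of genes), and with a neutrophil score added 6 were (21.9% of genes). The estimates of H2-Aa and Cd74, not called in either, were 1.27 and 1.19 with the first and 1.44 and 1.41 with both.

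The class II chains at 2d post-10U Col overlapped the vehicle mice. At that time H2-Aa was at 31.5, 35.1, 64.9 and 68.0 CPM, 2 mice below and 2 above the Col vehicle mice. Cd74 was at 84.1, 114, 182 and 138 CPM, a range that took in the vehicle mice. Their log2 fold changes against vehicle were -0.19 ± 0.30 for H2-Aa and -0.10 ± 0.29 for Cd74, with -0.04 ± 0.24 for H2-Eb1 and 0.35 ± 0.28 for H2-Ab1. No member was called higher at 2d by edgeR (0 of 9 tested, 1 at an unadjusted p under 0.05 and 1 by DESeq2, Cd80 in both; 1.14% of 14373 genes were called higher by edgeR and 11.7% by DESeq2), and the groups lay apart for 2 members, Cd80 and H2-DMb1 (10.7% of genes).

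Set directly against 2d, 5 members rose to 6d by edgeR (4.68% of 14513 genes did) and 6 by DESeq2, which added H2-DMb1 (8.82% of genes): H2-Aa (log2 difference 1.39 ± 0.31, adjusted p = 0.0375), H2-Ab1 (1.22 ± 0.26, adjusted p = 0.0332), H2-Eb1 (1.22 ± 0.26, adjusted p = 0.0328), Cd74 (1.26 ± 0.27, adjusted p = 0.0337) and H2-DMa (1.20 ± 0.29, adjusted p = 0.0446). In 8 members, all but Cd80 and Cd86, every 6d mouse stood above every 2d mouse (12.9% of genes). These calls were close to the threshold, and none of the 5 was called without mouse 1 or 2 of the 2d group or without any 1 of the 6d mice, where 0.713 to 2.27% of genes were. Comparisons at 2d, 6d and 12d share the 3 Col vehicle mice, and those of 6d with 2d and 12d share the 6d mice.

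**Figure D2:**
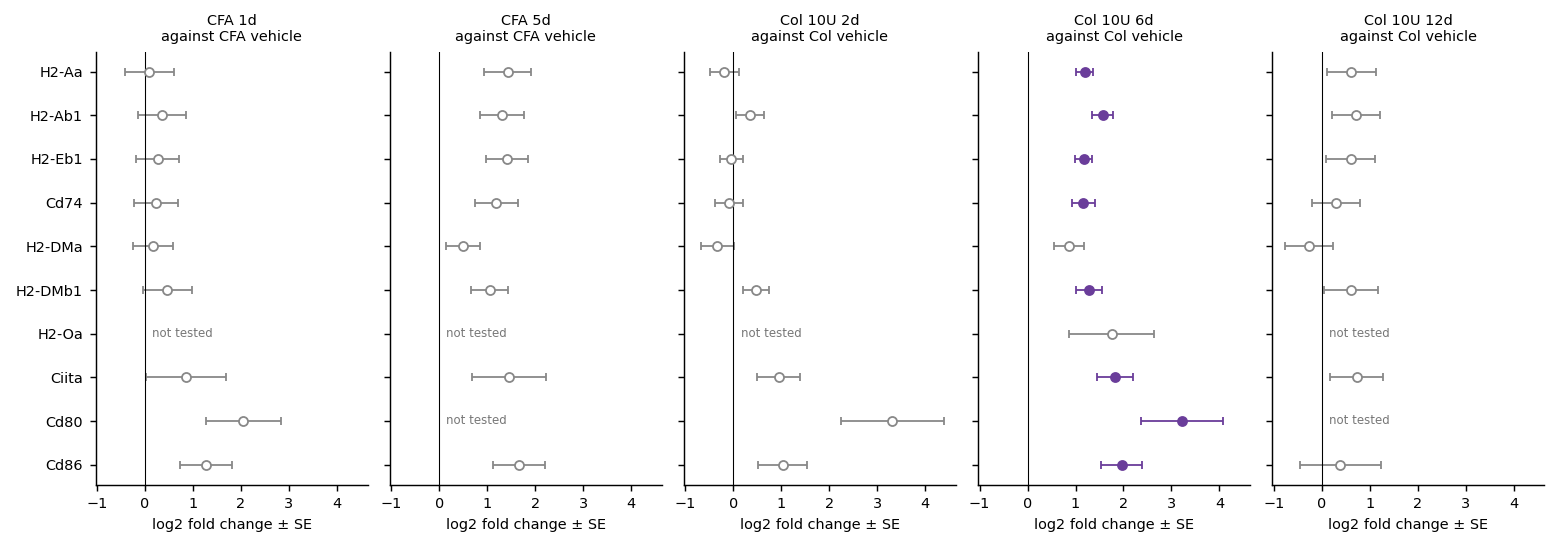
Log2 fold change ± SE (x axes) of the 10 members (y axis) in 5 comparisons with the vehicle of the same agent, from edgeR. Filled points passed an adjusted p of 0.05 and open points did not. Filled points occur in the panel of 6d post-10U Col alone, where 8 of 10 passed, Cd80 having entered the test only through its 6d reads, while the class II chains sit between 1.30 and 1.42 at 5d post-CFA with SE bars more than double as long.

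At 12d post-10U Col the class II genes differed widely between the mice. H2-Aa was at 48.5, 33.1, 87.4 and 172 CPM and Cd74 at 101, 67.2, 175 and 324 CPM in mice 1 to 4. Mouse 4 stood within or above the range of the 6d mice, mouse 2 below every Col vehicle mouse, and over all 10 members mouse 4 was the highest and mouse 2 the lowest of the 4. Against vehicle no member was called higher (0 of 8 tested by edgeR, 0 at an unadjusted p under 0.05 and 0 by DESeq2; 0.762% of 14176 genes were called higher by edgeR and 3.66% by DESeq2), and the groups lay apart for none (8.55% of genes). Estimates ran from -0.27 for H2-DMa to 0.73 for Ciita, with SEs of 0.50 to 0.84. In mouse 4 the summed levels of 8 macrophage and 7 dendritic cell markers were also the highest of the 12d group, at 618 and 29.6 CPM against 197 to 352 and 14.2 to 20.3 CPM in the other 3, and their part in the result was not tested.

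Against 6d, all 10 estimates at 12d were lower (median -1.02, beside 0.00 over all genes), yet edgeR called 1 lower, H2-Oa (13.0% of 14344 genes were), a gene that met the low-count filter there only through the 6d mice, so that its call does not bear on the other members. DESeq2 called 3, H2-Oa, Ciita and Cd80 (17.8% of genes). Groups lay apart, lower at 12d, for 2 members, Cd80 and H2-Oa (19.3% of genes). Mouse 4 decided this count: without it all 10 members were called lower at 12d, H2-Oa and Cd80 again having 10 or more reads in the 6d mice alone, and 29.1% of all genes were called lower. H2-Oa was not called without mouse 1 or 3 of the 12d group (adjusted p = 0.0625 and 0.0621), and without any 1 of the 6d mice it was not tested.

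Post-CFA, the class II genes were close to vehicle at 1d and higher at 5d without passing the test. At 5d H2-Aa was at 124, 112 and 166 CPM against 18.1, 60.9 and 77.6 CPM in the CFA vehicle mice, and H2-Eb1 at 94.1, 88.8 and 125 CPM against 16.5, 46.7 and 58.3 CPM. Every 5d mouse stood above every vehicle mouse for both genes. Log2 fold changes were 1.42 ± 0.49 for H2-Aa (adjusted p = 0.248), 1.40 ± 0.44 for H2-Eb1 (0.194), 1.30 ± 0.46 for H2-Ab1 (0.253) and 1.19 ± 0.46 for Cd74 (0.298). edgeR called 0 of the 8 members tested higher, 6 had an unadjusted p under 0.05, and DESeq2 called 2, H2-Eb1 (adjusted p = 0.0282) and H2-Aa (adjusted p = 0.0495); 1.06% of 14026 genes were called higher by edgeR and 5.06% by DESeq2.

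In 6 members, H2-Aa, H2-Ab1, H2-Eb1, Cd74, H2-DMb1 and Cd86, the 5d and vehicle groups lay apart (12.0% of genes). The members' median was 1.35, beside -0.02 over all genes. Mouse 3 of the CFA vehicle decided the count: without it 7 of the 8 tested were called, all but H2-DMa, and the share of all genes called higher was 11.8%. In that mouse the summed neutrophil markers stood at 634 CPM and the B cell markers at 26.8 CPM, against at most 3.94 and 0.797 CPM in the other 2 vehicle mice, while its class II genes were the highest of the 3. The 5d mice also held 86022 to 124103 CPM of salivary gland genes against 23.8 to 9357 CPM in their vehicle. With a salivary gland score, or that and a neutrophil score, as covariates in a fit of all 31 libraries, 0 members and 0% of all genes were called higher at 5d, so these fits do not set the members apart.

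At 1d post-CFA Cd74 was at 158, 92.1 and 148 CPM against 45.6, 133 and 157 CPM, a full overlap (log2 fold change 0.23 ± 0.46). edgeR called 0 of 9 members higher, 2 had an unadjusted p under 0.05 (Cd80 and Cd86), and DESeq2 called 0 and left 1 without an adjusted p; 0% of 13944 genes were called higher by edgeR and 0.330% by DESeq2. The groups lay apart for 1 member, Cd86 (3.46% of genes). Of the 9, all had estimates above 0, from 0.09 for H2-Aa to 2.05 for Cd80.

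Of the 0.2U groups, in group 1C H2-Aa was at 64.5, 62.3, 61.3 and 46.0 CPM, around the vehicle range, with a log2 fold change of 0.03 ± 0.16. In group RPC mouse 3 stood apart, with 157 CPM of H2-Aa against 64.0 to 76.7 CPM in the other 3, and with 342 CPM of Cd74 against 136 to 161 CPM. That mouse was the highest of its group for 8 of 10 members. edgeR called 0 of 8 members higher in 1C (1 at an unadjusted p under 0.05, H2-DMb1, and 0 by DESeq2; 0% of 14493 genes were called by edgeR and 2.48% by DESeq2) and 0 of 8 in RPC (0 at an unadjusted p under 0.05 and 0 by DESeq2, which left 2 without an adjusted p; 0% of 14269 genes by edgeR and 1.32% by DESeq2). The groups lay apart for 1 member each, H2-DMb1 in 1C (4.35% of genes) and H2-Aa in RPC (4.21% of genes).

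Of the 3 genes of peptide exchange, edgeR called 1 higher at 6d (14.0% of all genes), and in all 3 the groups lay apart (25.1%). H2-DMb1, the beta chain of H2-DM, was at 11.2, 15.9 and 10.2 CPM at 6d post-10U Col and at 4.19, 5.09 and 5.98 CPM in the Col vehicle mice (log2 fold change 1.28 ± 0.27, adjusted p = 0.0158). H2-DMa, the alpha chain, was at 10.1, 15.3 and 9.31 CPM against 5.78, 4.70 and 8.42 CPM, with an estimate of 0.86 ± 0.31 that missed the threshold (adjusted p = 0.0723; 0.0424 by DESeq2). Both sets of mice lay apart, but mouse 3 of the vehicle came within 1 CPM of the lowest 6d mouse for H2-DMa. At 2d H2-DMb1 was at 6.14, 6.00, 8.96 and 6.79 CPM, all above vehicle by a small margin (0.47 ± 0.27, adjusted p = 0.254), and H2-DMa at 3.15, 5.40, 6.43 and 4.84 CPM, across the vehicle range (-0.33 ± 0.34).

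H2-Oa, a chain of the H2-O molecule that restrains H2-DM, was the least read member. It had 30, 35 and 20 reads in the 6d mice, or 1.28, 1.19 and 0.835 CPM, and 3, 0 and 17 reads in the Col vehicle mice, or 0.137, 0 and 0.770 CPM. The highest vehicle mouse lay just under the lowest 6d mouse, and the estimate of 1.76 ± 0.89 did not pass (adjusted p = 0.168). At 12d the gene had 3, 0, 3 and 7 reads, below every 6d mouse. The log2 difference of 12d from 6d was -2.70 ± 0.61 (adjusted p = 0.0217, and 0.0275 with no low-count filter), for a gene tested there only because its 6d reads were high. Over the 31 libraries it had 3 or fewer reads in 12, and it passed the low-count filter only in comparisons that hold the 6d group and in the 2 tests of a difference between experiments.

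**Figure D3:**
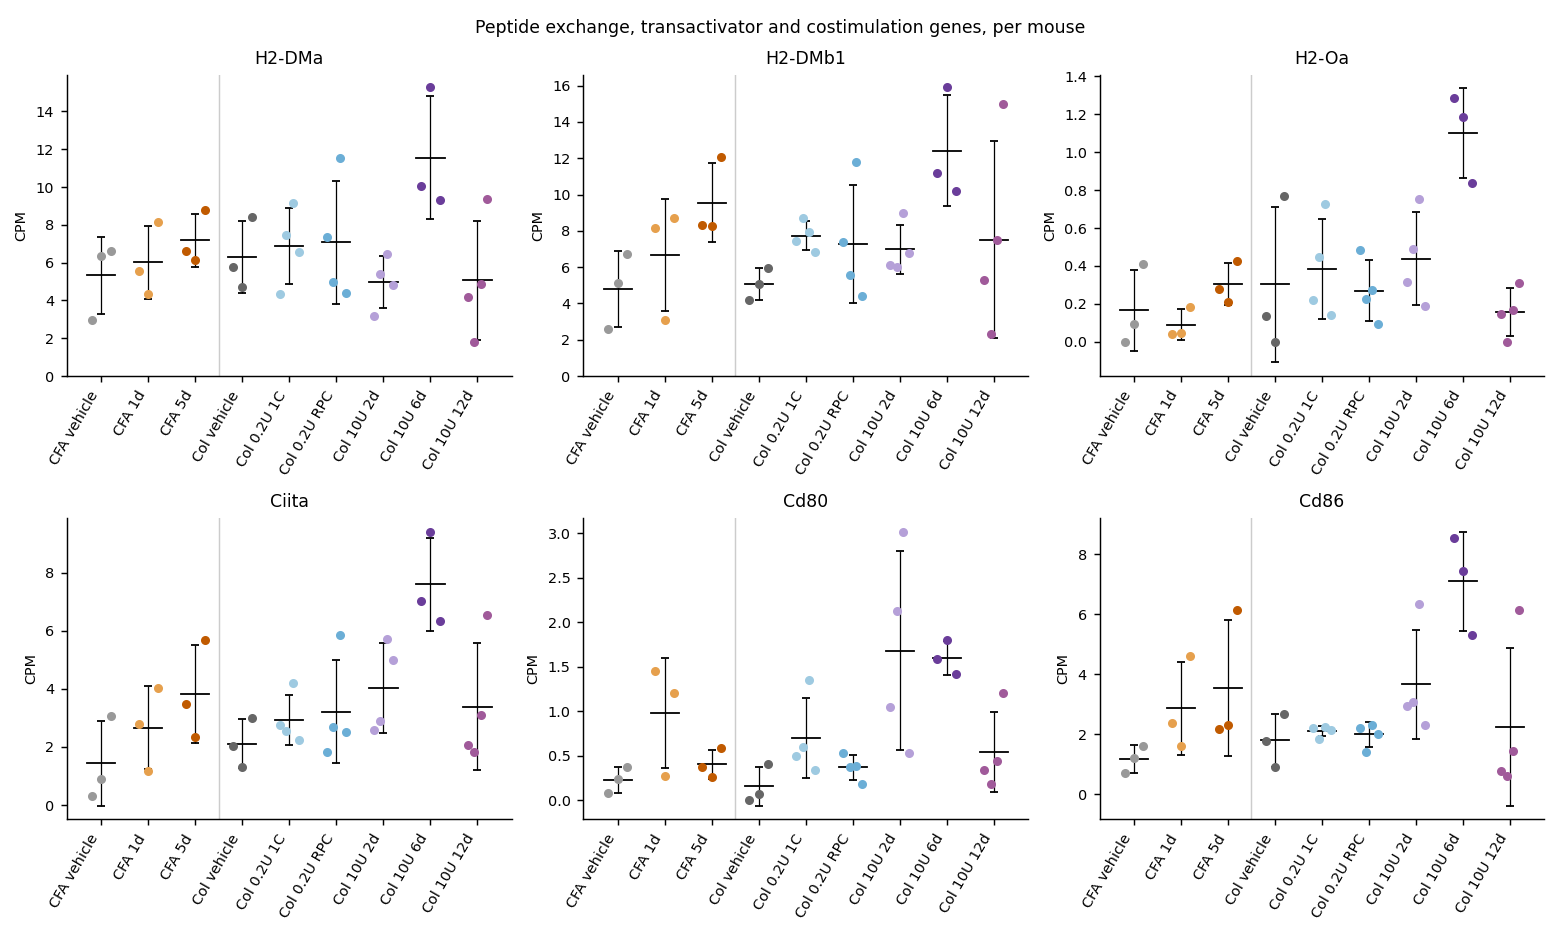
CPM of H2-DMa, H2-DMb1, H2-Oa, Ciita, Cd80 and Cd86 (y axes) in each mouse (points) by group (x axis), with the mean (line) and SD (bar); the grey line parts the experiments. The 6d mice of 10U Col are the highest group by mean in all panels but that of Cd80, where the 2d mice spread from 0.525 to 3.02 CPM and take in the 6d mice.

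Ciita, whose product switches the class II promoters on, was at 7.02, 9.42 and 6.35 CPM at 6d post-10U Col and at 2.05, 1.30 and 2.99 CPM in the Col vehicle mice. Even the lowest 6d mouse was at more than double the highest vehicle mouse, and the log2 fold change was 1.82 ± 0.37 (adjusted p = 0.0144). At 2d it was at 2.57, 2.89, 5.72 and 4.99 CPM, with 2 mice inside the vehicle range (0.95 ± 0.45, adjusted p = 0.179). At 5d post-CFA it was at 3.49, 2.34 and 5.67 CPM against 0.327, 0.890 and 3.08 CPM (1.45 ± 0.78, adjusted p = 0.477), an overlap made by mouse 3 of the vehicle.

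The costimulatory ligands bind CD28 and CTLA-4 on T cells, and both were higher in every mouse at 6d than in vehicle. Cd80 was at 1.05, 2.13, 3.02 and 0.525 CPM at 2d post-10U Col, at 1.58, 1.80 and 1.42 CPM at 6d, and at 0, 0.0652 and 0.408 CPM in the Col vehicle mice. All mice of both times stood above all vehicle mice, while 2d and 6d overlapped in full. Log2 fold changes against vehicle were 3.31 ± 1.07 at 2d (adjusted p = 0.0862; 0.0143 by DESeq2) and 3.22 ± 0.86 at 6d (adjusted p = 0.0312), and the difference of 6d from 2d was -0.08 ± 0.55 (adjusted p = 0.950). These folds rest on 0, 1 and 9 reads in the vehicle mice, so Cd80 was tested only through its reads at 2d or 6d, and its call at 6d is given as a value and not as support (adjusted p = 0.0328 with no low-count filter, 0.0550 without mouse 2 of the vehicle, and not tested without any 1 of the 6d mice). At 12d Cd80 was back at 0.337, 0.181 and 0.443 CPM in mice 1 to 3 and at 1.20 CPM in mouse 4, all below the 6d mice (-1.50 ± 0.54, adjusted p = 0.0728).

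Cd86 rose at 6d. It was at 8.56, 7.45 and 5.30 CPM at 6d against 1.78, 0.913 and 2.67 CPM in the Col vehicle mice (log2 fold change 1.97 ± 0.43, adjusted p = 0.0177). At 2d it was at 2.94, 3.06, 6.34 and 2.29 CPM, of which 1 mouse lay inside the vehicle range (1.03 ± 0.51, adjusted p = 0.193). At 1d post-CFA Cd80 was at 1.45, 0.274 and 1.21 CPM against 0.0818, 0.234 and 0.371 CPM in vehicle, and Cd86 at 2.38, 1.60 and 4.60 CPM against 0.695, 1.22 and 1.59 CPM. For Cd86 the groups met almost end to end, at 1.60 and 1.59 CPM. Neither passed at 1d (2.05 ± 0.78 for Cd80 and 1.27 ± 0.54 for Cd86, adjusted p = 0.924 for both).

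Ordered by mean CPM over the 9 groups, 8 of 10 members were highest at 6d post-10U Col. H2-Aa was highest at 5d post-CFA (134 ± 28.6 CPM, SD, n = 3) with 6d post-10U Col next (133 ± 24.2 CPM), and these 2 groups overlapped. Cd80 was highest at 2d post-10U Col (1.68 ± 1.11 CPM, n = 4), overlapping 6d (1.60 ± 0.188 CPM, n = 3). Of 80 neighbouring pairs of groups in these orders, 4 lay apart: the 6d group from the next one for H2-Ab1, H2-DMa, H2-Oa and Ciita. All other neighbours overlapped.

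To see whether the members kept their proportions, ratios of read counts were formed within each mouse, which cancel depth and scaling. The 7 ratios were chosen after the values had been seen, and 56 comparisons were made by two-sided exact permutation tests. The smallest p that these exact tests can give is 0.1 with 3 mice a side and 0.0571 with 4 against 3, so none could pass, and the separation of groups is given as a description. H2-Ab1 to H2-Aa was 1.15, 1.10 and 1.15 at 6d post-10U Col and 0.762, 0.797 and 1.03 in the Col vehicle mice (exact permutation p = 0.1, adjusted p = 0.35). At 5d post-CFA it was 0.759, 0.750 and 0.716, below its vehicle at 0.876, 0.820 and 0.775 (exact permutation p = 0.1, adjusted p = 0.35). The ratio was thus above vehicle in the first case and below it in the second, within a range of 0.699 to 1.69 over the 31 mice. The 10U libraries are those with more reads on several genes, and the part of that in this ratio was not tested. H2-Eb1 to H2-Aa overlapped vehicle at 6d (0.794 to 0.827 against 0.766 to 0.940) and lay below 2d (0.853 to 1.10). Cd74 to H2-Aa overlapped vehicle at 6d (2.31 to 2.46 against 2.11 to 2.89). It lay below vehicle at 12d (1.88 to 2.08) and at 5d post-CFA (1.62 to 1.94 against 2.03 to 2.52). The exact permutation p was 0.0571 for the 6d against 2d and 12d separations (adjusted p = 0.32). For 5d post-CFA it was 0.1 (adjusted p = 0.35).

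Ciita to Cd74 was 0.0306, 0.0253, 0.0314 and 0.0362 at 2d post-10U Col, 0.0235, 0.0251 and 0.0234 at 6d, and 0.0152, 0.0115 and 0.0173 in the Col vehicle mice. At 12d it was 0.0177 to 0.0270, also above every vehicle mouse (exact permutation p = 0.0571, adjusted p = 0.32). Its order was 2d above 6d above vehicle with no overlap (exact permutation p = 0.0571 for 2d against vehicle and for 6d against 2d, adjusted p = 0.32, and p = 0.1 for 6d against vehicle, adjusted p = 0.35). Cd86 to Cd74 was likewise apart from vehicle at 2d (0.0166 to 0.0350 against 0.00806 to 0.0155; exact permutation p = 0.0571, adjusted p = 0.32) and at 6d (0.0195 to 0.0287; exact permutation p = 0.1, adjusted p = 0.35), while 2d and 6d overlapped. At 2d Cd74 itself overlapped vehicle, as given above. H2-DMb1 to H2-DMa was 1.95, 1.11, 1.39 and 1.40 at 2d and at most 1.08 in the vehicle mice, again apart (exact permutation p = 0.0571, adjusted p = 0.32). It was apart from vehicle also at 12d (1.26 to 1.60; exact permutation p = 0.0571, adjusted p = 0.32) and at 5d post-CFA (1.26 to 1.37 against 0.801 to 1.01; exact permutation p = 0.1, adjusted p = 0.35), and at 6d it overlapped vehicle.

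The invariant chain was also set against Ptprc, which encodes CD45 and is made by all leukocytes. Cd74 to Ptprc was 3.36, 3.67, 3.72 and 6.74 at 2d post-10U Col, and 28.4, 52.6 and 6.84 in the Col vehicle mice (log2 difference -2.37, exact permutation p = 0.0571, adjusted p = 0.32). Mouse 3 of the vehicle, at 6.84, lay next to mouse 4 of the 2d group. That vehicle mouse also had the highest neutrophil markers of the series, at 1178 CPM in sum, and their part in this ratio was not tested. At 6d the ratio was 6.69, 5.73 and 8.47, overlapping vehicle through the same mouse.

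**Figure D4:**
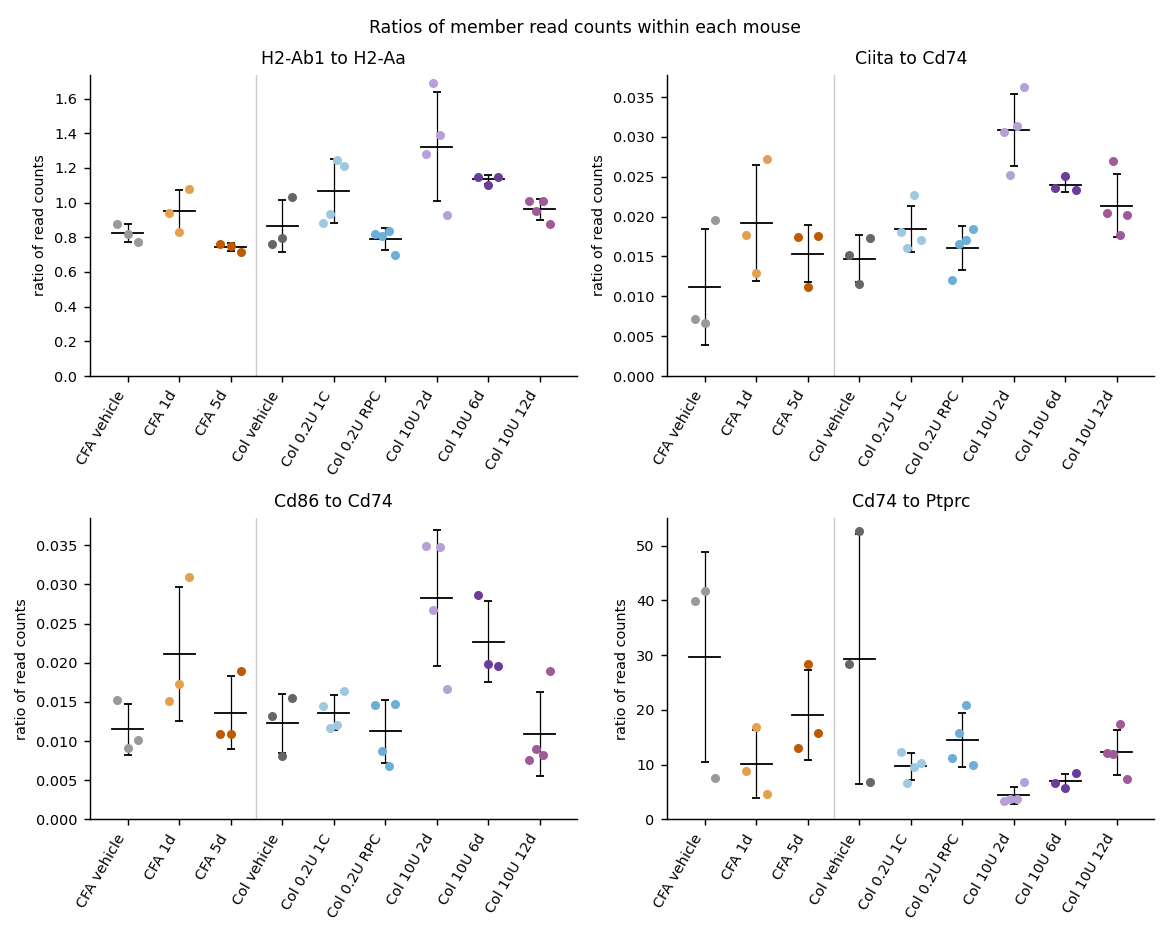
Ratios of read counts within a mouse (y axes, from 0) for H2-Ab1 to H2-Aa, Ciita to Cd74, Cd86 to Cd74 and Cd74 to Ptprc, by group (x axis), with points for mice and the mean (line) and SD (bar). By group mean Ciita to Cd74 is highest at 2d post-10U Col (0.0253 to 0.0362), and Cd74 to Ptprc is lowest there (3.36 to 6.74).

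Whether the members' change differed between the agents was tested as a difference of differences in a fit of both experiments. For 6d post-10U Col against 5d post-CFA, no member passed in edgeR (0 of 10, with 0 at an unadjusted p under 0.05 and 0 by DESeq2; 4.34% of 14892 genes passed higher and 6.96% lower, and 8.39% and 10.2% by DESeq2). Cd74 differed by -0.03 on the log2 scale (95% interval -1.11 to 1.05) and H2-Aa by -0.24 (-1.36 to 0.88), so differences of more than a doubling lay inside the intervals. Cd80 had the largest estimate, 2.37 (0.02 to 4.73, adjusted p = 0.214). Its interval left out 0 although its unadjusted p was not under 0.05. The intervals assume a normal spread and are narrower than edgeR's test allows with so few mice. For 2d post-10U Col against 1d post-CFA no member passed either (0 of 10, with 0 at an unadjusted p under 0.05 and 0 by DESeq2; 0.0541% of 14794 genes passed higher and 0.0406% lower, and 0.406% and 0.324% by DESeq2), with Cd74 at -0.35 (-1.45 to 0.75).

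Of 34 other genes of the pathway, 28 were tested at 6d post-10U Col, of which 9 rose and 1 fell (14.0% and 13.3% of all genes). The 9 became 3 without mouse 1 or mouse 2 of the 6d group (4.59% and 3.39% of all genes) and 4 without mouse 1 of the vehicle (7.66%). Of the antigen processing genes 4 of 5 rose, with Ctss, the cathepsin that cuts the invariant chain in antigen-presenting cells, at a log2 fold change of 4.07 ± 0.47 (adjusted p = 0.0029), Lgmn, an endosomal protease, at 2.30 ± 0.23, and Ctsl at 0.80 ± 0.20. The remaining one, Sppl2a (2010106G01Rik in the files), a peptidase that clears the stump of the invariant chain, was at 0.15 ± 0.15 (adjusted p = 0.484). March1, the ligase that removes class II from the surface, rose (2.21 ± 0.50, adjusted p = 0.0195) and March8 did not pass (-0.16 ± 0.15). Cd4 and Lag3, which bind class II, rose by 2.47 ± 0.59 (adjusted p = 0.0224) and 2.35 ± 0.56 (adjusted p = 0.0230), and so did Cd40 (1.83 ± 0.38, adjusted p = 0.0162). Of the other class II genes H2-Eb2, the last of the 9, met the low-count filter only through the 6d mice (2.44 ± 0.72, adjusted p = 0.0419), and H2-Ob, whose promoter stretch is shown above, was at 0.25 ± 0.48 (adjusted p = 0.718).

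Ciita acts through factors bound to the promoter. Of 7 genes for class II promoter factors (Rfx5, Rfxap, Rfxank, Nfya, Nfyb, Nfyc and Creb1) none rose at 6d and Rfxank fell by 0.76 ± 0.18 on the log2 scale (adjusted p = 0.0241); the most abundant, Creb1, Nfyb and Nfya, were at 0.51 ± 0.31, -0.25 ± 0.16 and 0.21 ± 0.17 and did not pass. Of 7 genes of interferon gamma signalling, 6 were tested and none passed in either direction at 6d, with Jak1 at -0.16 ± 0.17, Ifngr2 at -0.44 ± 0.15 and Ifngr1 at -0.05 ± 0.14. Ifng averaged 0.144 CPM over the 31 libraries and was not tested. At 5d post-CFA and at 2d post-10U Col none of the 27 pathway genes tested were called by edgeR. DESeq2 called 3 higher at 5d (5.06% of all genes), and 6 higher and 2 lower at 2d (11.7% and 11.4%). At 2d edgeR called 5 higher without mouse 4 of the 2d group (17.9% of all genes) and 2 without mouse 3 of the vehicle (2.86%). At 5d it called 3 without mouse 3 of the CFA vehicle (11.8%).

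Of the 5 antigen processing genes 0 were called at 2d by edgeR, with a median log2 fold change of 1.46 beside 0.02 over all genes. At that time Ctss was at a log2 fold change of 2.67 ± 0.58 against vehicle (adjusted p = 0.0532), Lgmn at 2.27 ± 0.51 (adjusted p = 0.0540) and Ifi30, the endosomal thiol reductase, at 1.46 ± 0.42 (adjusted p = 0.0717), all short of the threshold. From 2d to 6d Lgmn and Ifi30 changed by 0.03 ± 0.49 and 0.13 ± 0.42 and Ctss by 1.41 ± 0.50 (adjusted p = 0.119), none of them called. Cd4, Lag3 and Cd28 rose between 2d and 6d, by 2.95 ± 0.42 (adjusted p = 0.00947), 2.45 ± 0.53 (adjusted p = 0.0352) and 1.84 ± 0.28 (adjusted p = 0.0114). These 3 were the pathway genes called higher there. Their count became 0 without mouse 2 and 1 without mouse 1 of the 6d group, 5 without mouse 3 and 6 without mouse 4 of the 2d group, and 6 by DESeq2. The share of all genes called higher was 0.713%, 1.26%, 5.05%, 14.0% and 8.82% in turn, from 4.68%.

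**Figure D5:**
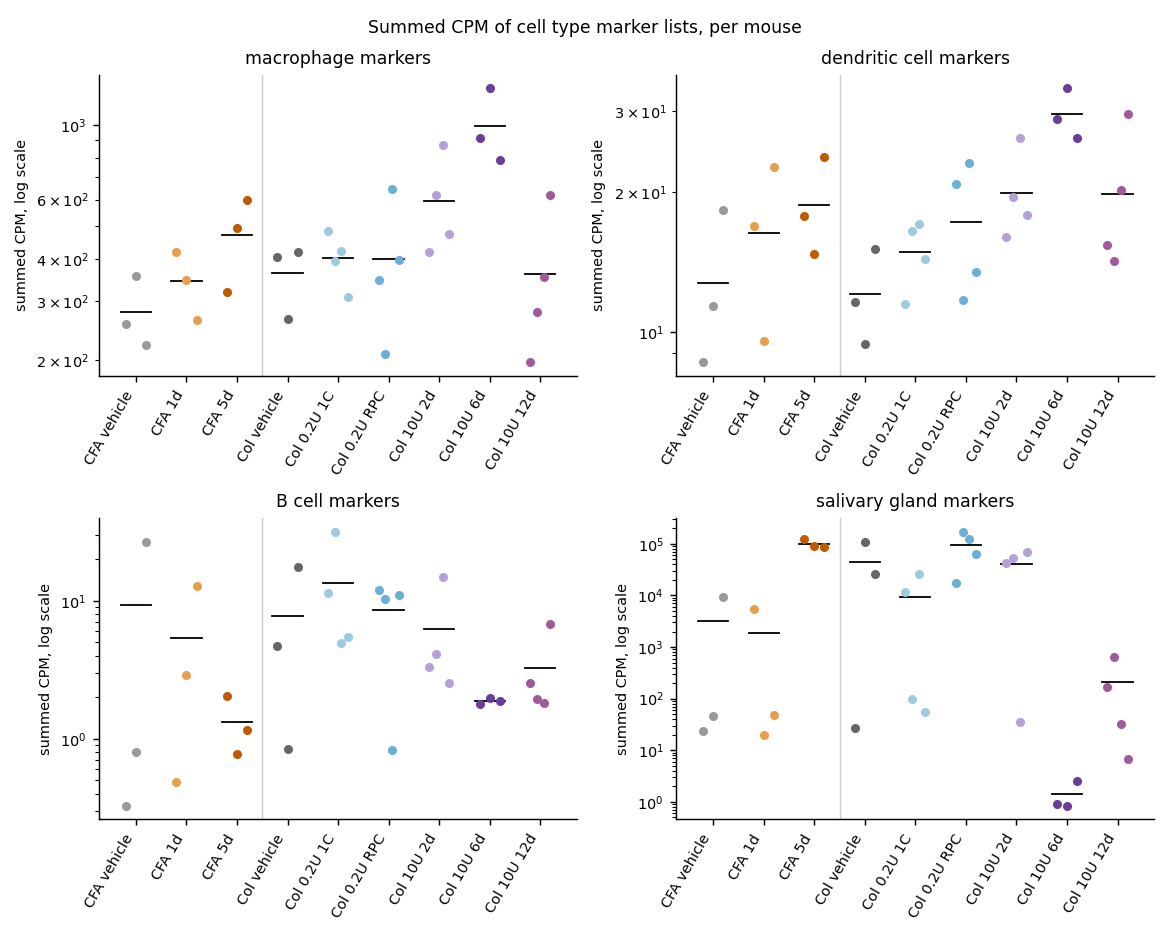
Summed CPM of marker lists (y axes, log scale) for macrophages, dendritic cells, B cells and salivary gland in each mouse (points) by group (x axis), with the group mean as a line. At 6d post-10U Col the macrophage and dendritic cell markers are above all Col vehicle mice, while the B cell markers lie between 1.80 and 1.96 CPM and the salivary gland genes between 0.847 and 2.59 CPM.

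Markers of macrophages and dendritic cells were higher with the members at 6d, and those of B cells were not. At 6d post-10U Col 7 of 8 macrophage markers rose and 1 fell (14.0% and 13.3% of all genes did). Their sum was 787 to 1286 CPM against 266 to 419 CPM in the Col vehicle mice. Of 7 dendritic cell markers 4 were called higher, Itgax, Flt3, Clec9a and Xcr1, where 14.0% of all genes were. Xcr1 met the low-count filter only through the 6d mice. The 7 markers summed to 26.2 to 33.6 CPM against 9.39 to 15.1 CPM. The 6 B cell markers summed to 1.80 to 1.96 CPM at 6d and to 0.848 to 17.7 CPM in vehicle, and 5 of them, Cd79a included, were too low to be tested. The 6 T cell markers summed to at most 3.59 CPM at 6d and 2.94 CPM in vehicle, with Cd3d, Cd3e and Cd3g too low to be tested, although Cd4 rose. At 2d the macrophage sum was already 421 to 872 CPM, just above every vehicle mouse, while the class II chains overlapped vehicle. The part of these cells in the members' levels was not tested.

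Muscle and gland genes went the other way at 6d. Of 6 muscle fibre genes edgeR called 2 lower, Ckm by 2.04 and Myh4 by 2.23 on the log2 scale (adjusted p = 0.0320 and 0.0318). The others did not pass, the median of the 6 was -1.51, and 13.3% of all genes were called lower. The salivary gland sum was below that of every vehicle mouse. With the salivary gland score as a covariate the estimate of H2-Ab1 was 1.62 (adjusted p = 0.0381) and the count of members called was 3, as given above, and the part of the muscle fibre genes in the members' rise was not tested.

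Over the 31 libraries, the genes whose log2 CPM was most like the mean of H2-Aa, H2-Ab1, H2-Eb1 and Cd74 were S1pr2 (Pearson r = 0.85), Cxcl16 (0.84), Spats2l (0.80), Pld4 (0.80) and Asap3 (0.80), out of 13496 genes with a mean of at least 1 CPM. Taken as deviations from group means, their r was 0.79, 0.86, 0.77, 0.81 and 0.65. The genes were picked by r over the same 31 libraries, which takes in the spread within groups. The second set of values is thus no separate support. Cxcl16 encodes a chemokine and S1pr2 a receptor for sphingosine 1-phosphate. The libraries share their groups, depth and scaling, and these values describe the libraries only.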

How the data were processed

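Whole left MM were sequenced by the study, 1 library a mouse (stranded poly(A) kit, 50-base single reads). Per the labels and the study's methods the authors used bcl2fastq, TopHat2 and mm9, and counted reads with HTSeq; versions, annotation and strand setting are not given in the sources used here. The deposited values are raw counts per gene, which were used as they stand. Closing lines of the count files (reads on no gene, 6.69 to 22.5%, or on several) were left out of library sizes. Here each comparison was fitted on its own groups with edgeR 4.0.16 (quasi-likelihood test, TMM scaling, R 4.3.3), after dropping genes that did not reach 10 counts in 3 of the libraries compared, with Benjamini-Hochberg adjustment over all genes tested and a threshold of 0.05. SEs were taken from the size of the fold change (log2) over the root of its F; 95% intervals assume a normal spread. CPM used TMM scaling over all 31 libraries, and RPKM the union of GENCODE vM1 exons. Exact permutation tests used SciPy; figures used matplotlib. The scripts were tested on simulated data.

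All 10 members are named, with at most 3 genes per role of the pathway list, those of highest mean CPM, and the 5 genes of at least 1 CPM most alike by Pearson's r of log2 CPM (prior count 2). Ctss, Ifi30, Rfxank, Ifng, H2-Ea-ps and the marker genes were named after their values were seen; some marker genes are not reported here by name. Alternatives were DESeq2 1.42.0, its size factors, no filter, a shared fit, a fold above 2, a mean RPKM above 1, a replicate block, pooled vehicles and leaving out each library; covariate fits (salivary gland and neutrophil scores, mean log2 of CPM plus 0.5) and the count of members called lower at 12d against 6d were added after seeing the data. The members and lists were chosen with earlier results of these data known. Replicate numbers come from the sample titles, which do not say what a shared number means; same-numbered mice deviated together in every pair (r above 0.1) for 1d post-CFA against vehicle (0.12 to 0.45) and for the 2 vehicle groups (0.11 to 0.62), and the block changed no call of a member there. Mice are separate animals by their labels, and p-values measure the spread between them.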

Additional observations from a re-analysis of the deposited data

Results flagged for a closer look

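In groups of 4 mice, 40 sets of a member and a group were checked for a mouse far from the others by Dixon's test, and 4 held one; chance alone gives about 5% of groups. Mouse 3 of the 0.2U RPC group was far above the other 3 for H2-Aa (157 CPM) and for Cd74 (342 CPM). Mouse 3 of the 0.2U 1C group was far above the others for H2-Ab1 (76.3 CPM), and mouse 4 at 12d post-10U Col for Cd86 (6.14 CPM). In the RPC mouse the summed macrophage markers stood at 645 CPM against 209 to 397 CPM in the rest of its group, and its neutrophil markers at 3.75 CPM against 255 to 317 CPM; their part was not tested.

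Reads that fell on more than 1 gene, a value outside the gene counts, averaged 0.804% of assigned reads in the 11 libraries of 10U Col, above the 0.166 to 0.236% of the Col vehicle libraries. Of the members, H2-Aa and H2-Ab1 overlap each other by about 1% of their exon bases on opposite strands, and the part of this difference in their counts was not tested.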

How the results depend on the processing

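Under other settings, the count of members called higher at 6d post-10U Col (8) became 5 in 1 fit shared by all 31 libraries, 3 with a replicate block, 3 with the salivary gland covariate, and 3 to 10 when 1 library was left out. The share of all genes called higher there was 16.3%, 5.88%, 12.5% and 3.39 to 21.2% in turn, from 14.0%. H2-Ab1 passed at 6d in all 14 alternatives (adjusted p 1.5e-09 to 0.0381), H2-Aa in 11 and Cd74 in 8 of 14. The count for 6d against 2d (5) became 3 in the shared fit, 0 with the salivary gland covariate, 1 with both covariates, and 0 to 7 with 1 library left out. All-gene shares in that comparison were 6.60%, 1.59%, 5.22% and 0.713 to 14.0% in turn, from 4.68%. At 2d against vehicle (0) it became 1 with DESeq2, 1 in the shared fit, 1 with the replicate block, 1 with either covariate fit and 2 with pooled vehicles, and 0 to 1 with 1 library left out. At 5d post-CFA (0) the count became 2 with DESeq2 (5.06% of all genes) and 0 to 7 with 1 library left out (0 to 11.8%). The members whose change differed between 6d of 10U Col and 5d of CFA (0) became 0 to 1 with 1 library left out. Of all genes, 1.46 to 7.36% passed higher and 2.39 to 10.6% lower in those fits. Members called lower at 12d against 6d (1) became 3 with DESeq2, 3 in the shared fit, 10 with the replicate block, 3 with the salivary gland covariate, 5 with both, and 0 to 10 with 1 library left out. The share of all genes called lower there moved too, from 13.0% to 24.7% with the block, 17.4% with both covariates and 0.934 to 29.1% with 1 library left out. It was 17.8% with DESeq2, 12.1% in the shared fit and 12.1% with the salivary gland covariate. Of the pathway genes called higher at 2d (0, where 1.14% of all genes were), 6 were called in the shared fit (16.5% of all genes). The count was 5 with the block (16.1%) and 7 with pooled vehicles (17.7%). It was 6 and 8 with the covariates. Of all genes, 16.7% were called higher with the salivary gland covariate, and 2875 of 14373 with both. At 6d (9) 3 pathway genes were called with the block (5.88% of all genes) and 6 with the salivary gland covariate (12.5%). With 1 library left out the count was 3 to 10 (3.39 to 21.2%). The cause was not tested. The shared replicate numbers paired mice in neither the 10U Col groups nor 5d of CFA (lowest r of a pair -0.35 to -0.19), so block results there are not read as weaker effects, and the block moved no other count of members.

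Signs turned for the following fold changes (log2), none of which was called. In the shared fit H2-Eb1 in group 1C was -0.00108, and with both covariates H2-Aa and H2-Eb1 there were -0.0396 and -0.0182. With pooled vehicles H2-Eb1 and Cd74 at 2d of 10U were 0.0760 and 0.0599. At 12d against vehicle the replicate block gave -0.12 (H2-Aa), -0.11 (H2-Eb1), -0.35 (Cd74), -0.0936 (H2-DMb1) and -0.88 (Cd86), and the salivary gland covariate -0.00478 (Cd86). Cd80 at 6d against 2d was 0.0785 with the salivary gland and 1.24 with both covariates. With 1 library left out, ranges that cross 0 were, at 1d post-CFA, -0.31 to 0.55 (H2-Aa), -0.0237 to 0.77 (H2-Ab1), -0.11 to 0.68 (H2-Eb1), -0.14 to 0.61 (Cd74) and -0.12 to 0.40 (H2-DMa); in 1C, -0.00588 to 0.16 (H2-Aa), -0.0353 to 0.13 (H2-Eb1), -0.0179 to 0.41 (H2-DMa) and -0.0482 to 0.67 (Cd86); in RPC, -0.13 to 0.51 (H2-DMa) and -0.12 to 0.64 (Cd86); at 2d of 10U, -0.19 to 0.12 (H2-Eb1) and -0.29 to 0.0728 (Cd74); at 12d, -0.0215 to 0.87 (H2-Aa), -0.28 to 0.55 (Cd74), -0.78 to 0.0417 (H2-DMa) and -0.92 to 0.84 (Cd86); and for 6d against 2d, -0.38 to 0.39 (Cd80). Depth limits H2-Oa and Cd80, which had 3 or fewer reads in 12 and 4 of 31 libraries.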
